A study of Mus musculus with 6 samples.

Results

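H3K4me3 is a histone mark best known from active promoters, and the regions described here are those that carried it inside introns, away from annotated start sites. They came from 1 CUT&RUN library of mouse prospermatogonia, fetal male germ cells that precede the spermatogonia. In this method an antibody guides a nuclease, which cuts out the bound chromatin so that its DNA can be sequenced. From the 64891 regions listed for H3K4me3 replicate 1, those were taken whose deposited class was intron, whose centre lay more than 1000 bp from the nearest transcription start site (TSS), and whose width was under 3000 bp. This left 12190 regions, 18.8% of the list (95% Wilson interval 18.5 to 19.1). Of 15347 regions in the intron class, 3116 were too close to a start site and 41 of the remainder were too wide. No score entered the choice.

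All cells were sorted by fluorescence from gonads of male embryos at E16.5 (the embryonic day), of strain C57BL/6 and wild type for Taf4b (Taf4b-wildtype). Every group carried the Oct4-EGFP transgene of the line B6;129S4-Pou5f1tm2Jae/J, for which the mice that were mated were homozygous, and live cells were separated into those with and those without its signal. The 3 groups of 2 replicates were antibodies against H3K4me3, against TAF4b (a germ cell-enriched TFIID subunit) and IgG. No IgG file was used, so the values below have no antibody background beside them. Whether the replicates came from different animals or pools is not stated, and read depths are not given.

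H3K4me3 is written by SET1 and MLL methyltransferases and spreads over the first nucleosomes of a transcribed gene. Inside a gene body it can mark alternative promoters, promoters of transcripts nested in an intron, CpG islands without a known gene, strong enhancers, or promoters of transposable elements. TFIID can read the mark and places the transcription machinery at the core promoter. In prospermatogonia DNA methylation is being re-established over the genome, transposable elements included.

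As a check of the cells, H3K4me3 replicate 1 listed a promoter region for 20 of 32 germ cell genes, among them Ddx4 and Dazl, which encode RNA-binding proteins that define germ cells. It also did so for 10 of 16 Sertoli and supporting cell genes and for 4 of 16 endothelial and blood cell genes, while the share over all protein-coding genes was 44.0%. A TAF4b promoter peak was listed for 15 of the germ cell genes and for 0 of the Sertoli, endothelial or blood genes, beside 22.7% of all protein-coding genes. The H3K4me3 counts therefore did not separate the germ cell list from the Sertoli list. What part other cells have in the H3K4me3 list was not tested. The second H3K4me3 library stood far apart, with 1730 regions, and the rule used here found 77 in it (4.45%, 3.58 to 5.53).

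The intronic regions that held the strongest TAF4b peaks differed in sequence among themselves. The 4 highest-scoring TAF4b replicate 1 peaks inside them are printed below as the forward strand of GRCm39. Capitals mark the CCAAT box, the GC box (GGGCGG) and the run GGGGCGTGGCTC, each on either strand. The last run is the 12 bases repeated most often in the first of the peaks, chosen after the sequences were seen.
Lrrc4b intron 1, chr7:44082947-44083089: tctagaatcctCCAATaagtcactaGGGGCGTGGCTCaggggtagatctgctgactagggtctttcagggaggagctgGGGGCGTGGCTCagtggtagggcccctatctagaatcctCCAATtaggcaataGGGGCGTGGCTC
Epc2 intron 1, chr2:49342080-49342222: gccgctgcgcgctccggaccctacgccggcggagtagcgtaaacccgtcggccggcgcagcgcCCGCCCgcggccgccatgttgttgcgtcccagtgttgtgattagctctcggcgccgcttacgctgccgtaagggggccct
ENSMUST00000032813 intron 63, chr7:28763081-28763223: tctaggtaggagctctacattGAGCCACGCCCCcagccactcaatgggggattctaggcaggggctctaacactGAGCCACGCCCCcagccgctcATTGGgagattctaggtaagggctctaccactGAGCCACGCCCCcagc
Clec11a intron 3, chr7:43954559-43954701: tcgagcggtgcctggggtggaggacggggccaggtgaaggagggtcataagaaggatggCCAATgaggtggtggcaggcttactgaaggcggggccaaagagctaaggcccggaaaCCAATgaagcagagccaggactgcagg
The Lrrc4b peak and the peak in the transcript ENSMUST00000032813 each held 3 copies of the same run, on opposite strands. The Epc2 peak was a CpG-dense sequence with 23 CG dinucleotides in 143 bases, against 3 in the Lrrc4b peak. The CCAAT box was present 2 times in the Clec11a and Lrrc4b peaks each and 1 time in the ENSMUST00000032813 peak, but not in the Epc2 peak.

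The regions with the highest H3K4me3 scores were as unlike. The central 200 bases of the 2 highest are shown, with each CG in capitals.
Galnt14 intron 1, chr17:74001386-74001585: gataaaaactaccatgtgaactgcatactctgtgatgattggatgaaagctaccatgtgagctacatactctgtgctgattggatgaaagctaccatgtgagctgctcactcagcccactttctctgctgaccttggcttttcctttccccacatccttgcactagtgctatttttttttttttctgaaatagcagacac
Klf1 intron 2, chr8:85630124-85630323: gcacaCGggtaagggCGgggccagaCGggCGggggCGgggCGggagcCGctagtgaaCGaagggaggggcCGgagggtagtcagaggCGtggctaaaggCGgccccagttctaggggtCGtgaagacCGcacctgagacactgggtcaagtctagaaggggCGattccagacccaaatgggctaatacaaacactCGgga
The Galnt14 sequence had a GC content of 42.5% and 0 CG dinucleotides. The Klf1 sequence had a GC content of 64.5% and 15.

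Some words of sequence recurred in many of the regions. The 14-base words that covered the most regions, each counted on either strand and taken one after another, were picked by comparison with 24380 windows of 300 bp centred 3000 bp to each side of the regions. The regions are longer than these windows. The 6 leading words are shown. Each was in the most regions not covered by an earlier word, after its length-scaled share in the flanking windows was subtracted. They need not be the 6 most widely shared words.
Word 1: AAGACCTCTGGTGA
Word 2: TAGTCTGAACAGGT
Word 3: CTTTCTACAATAAA
Word 4: ATTGGCTGCAGCCC
Word 5: TGCAGAAGGATCCT
Word 6: CTGAGCCACGCCCC
The first word was present in 334 regions (2.74%, 2.46 to 3.04) and in 4 of the flanking windows. The second was present in 209 regions (1.71%, 1.50 to 1.96) and also in 4 windows. The other 4 words were in 94 to 133 regions each, and at least 1 of the 6 was in 1007 regions (8.26%). In intergenic H3K4me3 regions more than 1000 bp from a start site, which did not enter the choice of words, the first word was present in 3.48% (3.27 to 3.70) and the second in 2.09% (1.93 to 2.27). In promoter-TSS regions these shares were 0.0966% and 0.0595%.

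The 2 leading words stood at a similar distance from one kind of coding sequence. The genome was searched for every codon spelling of the conserved active-site residues of the LINE-1 reverse transcriptase. LINE-1 elements are retrotransposons, and full-length mouse copies begin with tandem promoter units that lie upstream of their reading frames. Of regions with the first word, 86.8% had such codons 3000 to 5000 bp downstream on the strand on which the word reads as printed, at a median of 3858 bp from the region centre. For the second word the share was 92.8% and the median 4021 bp. For each of words 3 to 5 it was 1 region, and for word 6 it was 0. The strand printed for a word was chosen as the one with more such codons. On the other strand, 2 regions with the first word and 1 with the second had codons downstream in that range. Of the 543 regions with either word, 484 (89.1%) had the codons in that range, and 219 of the 11647 regions with neither word also had them (1.88%). No repeat annotation was used here, so the families of the words are not assigned, and the distance range was chosen after the matches had been seen.

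**Figure D1:**
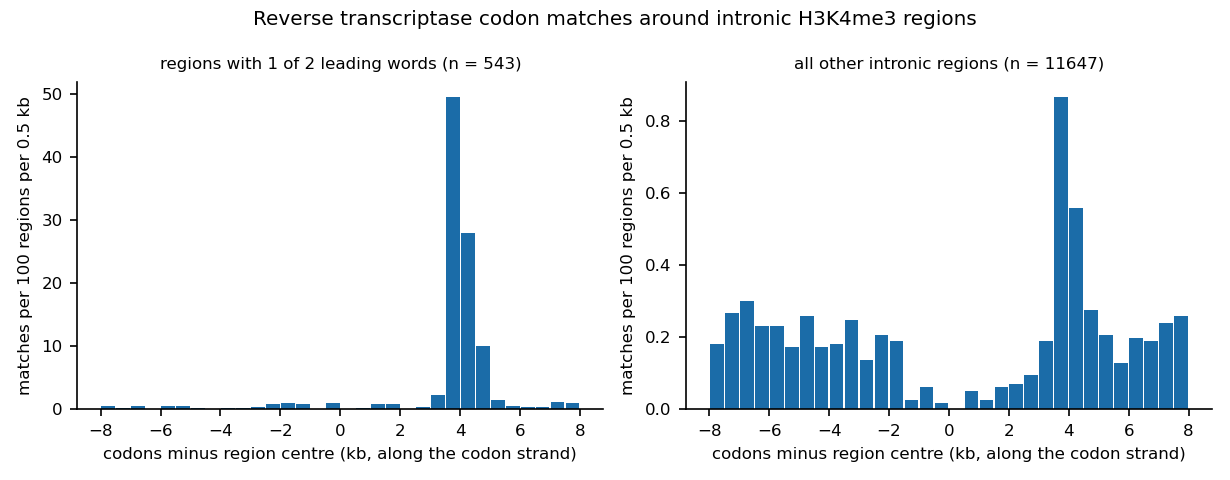
Matches to LINE-1 reverse transcriptase codons per 100 regions in bins of 500 bp (vertical axes differ in scale), against the distance from the region centre in kb measured along the strand of the codons, for regions with 1 of the 2 leading words (left) and all other intronic regions (right). The matches gather on the downstream side between 3000 and 5000 bp in both panels, in 89.1% of the regions on the left and 1.88% of those on the right.

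The 2 words together marked 543 regions, 4.45% of the whole. Of these, 484 (89.1%, 86.2 to 91.5) had the codons downstream at that distance on either strand and 3 had them as far upstream. Of the 11647 regions without either word, 219 (1.88%, 1.65 to 2.14) had them downstream and 100 (0.859%) upstream. Over all intronic regions the downstream count was 703 (5.77%, 5.37 to 6.20) and the upstream share 0.845%. Intergenic regions had 7.57% (7.26 to 7.89) downstream and 1.89% (1.73 to 2.06) upstream, and promoter-TSS regions had 0.379% and 0.535%. Promoter regions thus lacked the excess on the downstream side. In replicate 2, 3 of 77 intronic regions had the codons downstream and 0 upstream.

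The regions with either word were low in score and narrow. Their median score was 31.3 (29.8 to 32.8), against 38.8 (38.8 to 40.2) in regions without, and their median width 500 bp against 664 bp. The share at the minimum width of 500 bp was 54.0% against 34.1%. Across deciles of the score, the share of regions with codons downstream was between 7.38% and 9.11% in the lowest 4 deciles and 1.64% in the highest. The GC content of their centres was higher, with a median of 56.0% against 51.0%. They were spread over 443 matched host genes, and the host with the most, Cntnap2, which encodes a neuronal adhesion protein, had 5. Of 476 with a matched host and codons downstream, 301 (63.2%, 58.8 to 67.4) had the codons on the strand opposite to the host gene. The same share was not computed for codons in introns at large, so whether marked regions differ from these was not tested. Of the genome's 6205 loci with the first word (copies within 3000 bp taken as 1 locus), 1331 (21.5%, 20.4 to 22.5) overlapped a listed H3K4me3 region of any class. The share for the second word was 21.4% of 3852 loci. How reads that match several copies were placed is not given in the sources used here, and its part in these counts was not tested.

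The remaining words were present away from reverse transcriptase codons. The sixth, which holds the run seen in the Lrrc4b peak, was in 94 regions on 7 chromosomes, whereas each of the first 5 was found on 20. Word 3 was the one with the highest median score, 53.7, and the widest regions, with a median of 850 bp. Word 4 begins with a CCAAT box read on the other strand, and 13 of its 132 regions (9.85%) overlapped a TAF4b replicate 1 peak. For word 6 it was 7 of 94 (7.45%), for words 3 and 5 it was 3.76% and 3.77%, for the first word 7 of 334 (2.10%) and for the second 0 of 209. The share was 2.80% over all the intronic regions and 9.62% over all listed H3K4me3 regions, so word 4 was near the latter.

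In score and width the intronic regions resembled intergenic regions chosen by the same distance and width. The score is the authors' value within 1 list, on regular steps, so medians and interval bounds can fall on the same step. The median score was 38.8 in both sets, with quartiles of 26.8 and 59.6 in both, and the median for promoter-TSS regions was 77.5. The median width was 657 bp (652 to 664) in introns, 656 bp (653 to 660) between genes and 1197 bp at promoters. Regions of exactly 500 bp, the narrowest listed, made up 35.0%, 35.6% and 12.6%. The intronic scores ran from 16.4 to 296.6 and the 95th percentile was 104.3. Across the 12190 regions score and width had a Spearman's rho of 0.874, a description of regions of 1 library that share its depth. In replicate 2 the median score was 111.2 and the median width 500 bp for the 77 intronic and for the 120 intergenic regions.

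**Figure D2:**
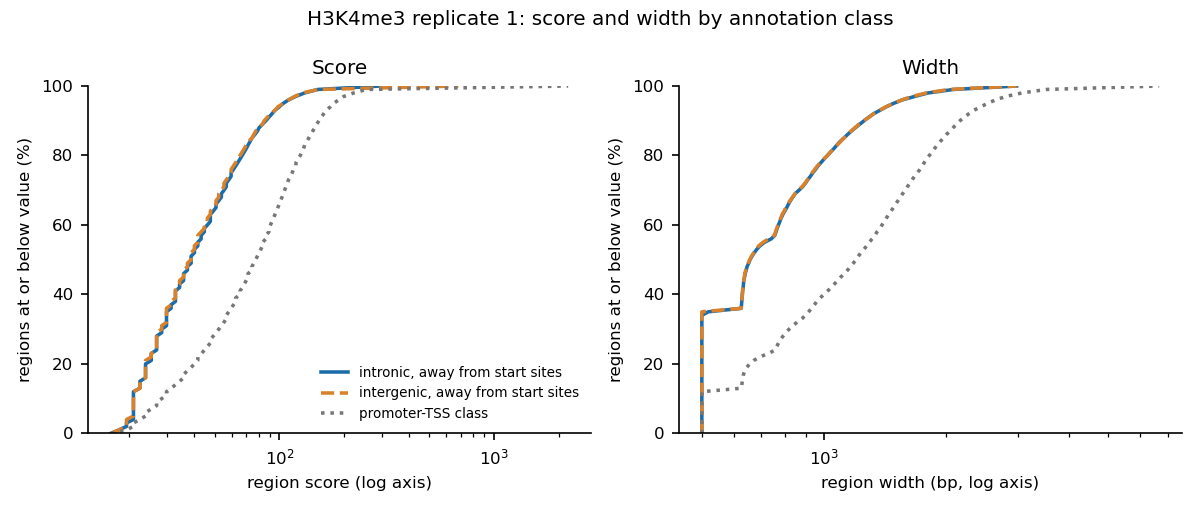
Cumulative percentage of H3K4me3 replicate 1 regions against the authors' score (left) and the width in bp (right), both on log axes, for intronic and intergenic regions away from start sites and for the promoter-TSS class. The intronic and intergenic curves lie on each other, with medians of 38.8 and 38.8 in score and 657 and 656 bp in width, and the promoter curve lies to the right.

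At the edges of the rule, the 140 regions up to 100 bp beyond the distance limit had a median score of 43.2, and the 142 intron-class regions up to 100 bp inside it had 46.2. The 17 regions within 300 bp of the width limit had a median score of 169.9, and the 41 wider ones left out had 241.5.

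TAF4b overlapped few of the intronic regions. In replicate 1, 341 of 12190 (2.80%, 2.52 to 3.11) shared at least 1 bp with a TAF4b peak, while over all listed H3K4me3 regions the share was 9.62%. The share was 2.55% (2.37 to 2.74) in intergenic regions and 29.5% in promoter-TSS regions. With the TAF4b replicate 2 list 17 intronic regions overlapped (0.139%), against 1.16% of all regions. In the second pair of libraries 1 of the 77 intronic regions overlapped TAF4b (1.30%) and 4 of 120 intergenic ones (3.33%). Over the 2 pairs the mean was 2.05% ± 1.06 (SD, n = 2) for intronic and 2.94% ± 0.555 (SD, n = 2) for intergenic regions. The difference of -0.893 percentage points had a two-sided exact permutation p of 0.667, in a design that cannot give less than 0.333. That test treats the shares as separate, although both shares of a pair come from the same libraries, and the paired exact sign-flip test gave p 1.0 (smallest possible 0.5). Its sign differed between the pairs, 0.249 in the first and -2.035 in the second, so neither class had the higher share beyond the spread between libraries.

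The regions with TAF4b were the stronger ones. Their median score was 59.6 (55.2 to 62.6) against 38.8 in those without, and their median width 892 bp (826 to 935) against 654 bp. The share with TAF4b went from 0.656% (0.333 to 1.29) in the lowest decile of the score to 6.32% (5.08 to 7.82) in the highest. Intergenic regions gave 0.586% and 6.81% in the same deciles. A wider interval also has more room for an overlap, and median width went from 500 to 1386 bp over these deciles. The part of width in the gradient was not tested.

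**Figure D3:**
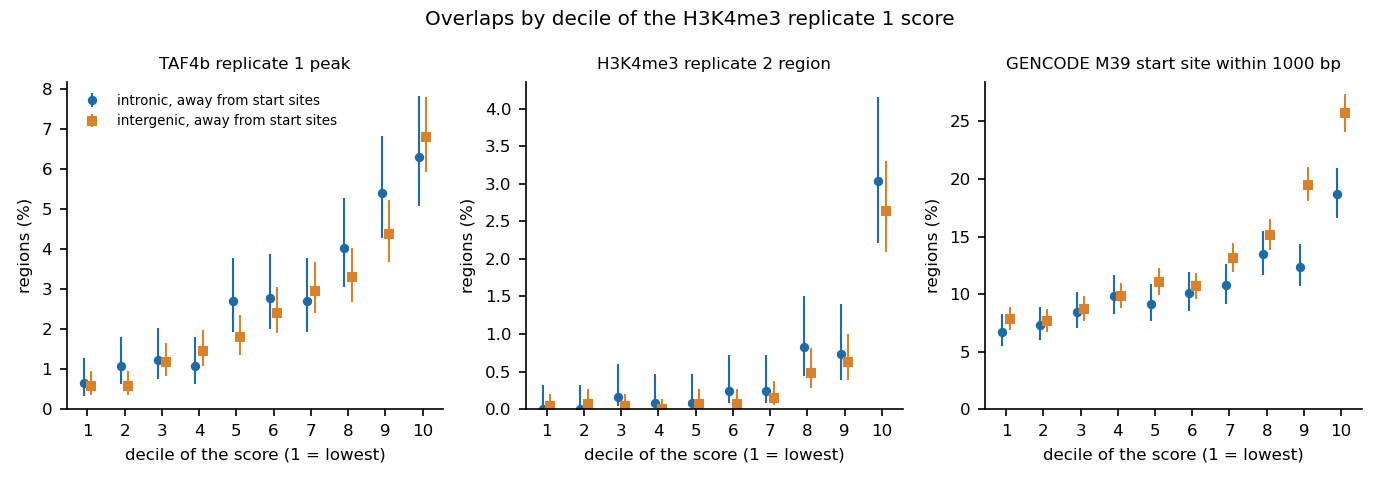
Percentage of intronic (circles) and intergenic (squares) H3K4me3 replicate 1 regions that overlap a TAF4b replicate 1 peak, overlap an H3K4me3 replicate 2 region, or lie within 1000 bp of a start site in the GENCODE M39 annotation, by decile of the score, with 95% Wilson intervals. All 3 shares are higher in the highest decile than in the lowest, for TAF4b 6.32% against 0.656% in introns.

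The 341 regions held 342 TAF4b peaks, 4.35% of that list. These peaks had a median score of 11.4 (10.4 to 11.9) on the TAF4b list's own scale, where the median of all peaks was 14.9, and the range was 6.95 to 43.2. Their centres lay at a median of 141 bp from the centre of the H3K4me3 region. Seen from the TAF4b side, 494 peaks were classed as intronic and lay more than 1000 bp from a start site, and 325 of them (65.8%) fell in the intronic H3K4me3 regions and 376 (76.1%, 72.2 to 79.7) in a listed region of any class. Over all 7861 TAF4b peaks the last share was 84.1% (83.3 to 84.9), so the intronic peaks were not more often in marked regions than TAF4b peaks at large.

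Among the hosts of the 10 strongest of these TAF4b peaks were genes of several kinds. The peak in intron 1 of Lrrc4b, which encodes a synaptic adhesion protein, had a TAF4b score of 43.2 in an H3K4me3 region scoring 71.5. The peak in intron 1 of Epc2, a subunit of the NuA4 acetyltransferase complex, scored 40.7 in a region of score 83.5. Its region centre lay 1102 bp from the start of Epc2, while the TAF4b peak itself lay 653 bp from it, closer than the rule allows for a region. The third peak, with a score of 37.2, lay in a transcript absent from the M39 annotation. The peak in Clec11a, which encodes a secreted growth factor, scored 36.2 in a region of score 181.9. The peak in intron 1 of Shoc1, a meiotic crossover gene, scored 31.8, and a later annotated lncRNA, Gm35527, starts 86 bp from that region's centre. Peaks in Gm49291 and Gm43122 both scored 29.8. Those in Nfkb1, an immune transcription factor, in Gm44511 and in Angptl6, a secreted factor, each scored 29.3.

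The commonest 12-base word in the 342 TAF4b peaks was AGCCAATCAGGG, which contains a CCAAT box and was singled out after a count of all such words. It was present in 20 of them (5.85%, 3.82 to 8.86), in 126 of 7861 TAF4b peaks in all (1.60%) and in 13 of 5756 promoter peaks (0.226%, 0.132 to 0.386). The CCAAT box itself was in 48.5% of the 342 peaks and 37.9% of TAF4b promoter peaks. The GC box was in 21.6% and 56.9%, the ETS site (CCGGAAGT) in 1.75% and 6.39%, and the cAMP response element (TGACGTCA) in 2.63% and 4.45%. The median GC content was 55.9% in the intronic peaks and 64.3% in the promoter peaks. The windows were the 143 bases of each peak, and a match is a description of the letters.

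The regions stood out from their surroundings in base composition. The median GC content of their central 300 bp was 51.0%, against 43.7% in windows 3000 bp away, and it was above the mean of the flanks in 86.5% of regions. The ratio of observed to expected CpG was 0.347 against 0.176. Intergenic regions had 50.7% against 42.0% GC, and promoter regions 59.0% against 45.0%. GC was above the mean of the flanks in 90.1% of all listed H3K4me3 regions and in 89.3% of intergenic ones, so this was not particular to introns. A centre with at least 50% GC and a CpG ratio of at least 0.6 was called CpG-rich. This held for 748 regions (6.14%, 5.72 to 6.58), 1.08% of flanks and 51.7% of promoter regions. The share was 20.0% over all listed regions and 5.26% in intergenic regions. CpG-rich centres had a median score of 50.7, and 5.88% of them overlapped TAF4b, against 2.60% of the others. The regions were thus richer in GC than their flanks, but most were not like CpG islands.

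Motifs were counted in the same 300 bp windows. The GC box was in 14.8% of intronic regions, 4.03% of their flanks, 12.4% of intergenic, 46.7% of promoter and 22.8% of all regions. The TATA box (TATAAA) was in 11.2% of regions and 22.9% of flanks, and the GATA site (AGATAA) in 11.3% and 17.9%. The CCAAT box was in 39.4% and 36.6%. The octamer bound by Oct4 (ATGCAAAT) was in 1.83% of regions and 2.16% of flanks, and the AP-1 site (TGANTCA) in 7.70% and 9.70%. The E-box CACGTG was in 7.47% and 3.61%, the ETS site (CCGGAAGT) in 1.82% and 0.254%, and the NRF1 site in 0.632% and 0.0205%. The cAMP response element was in 0.459% and 0.254%. GC box, ETS, NRF1, E-box and cAMP element matches were thus more frequent than in flanks, and TATA, GATA and AP-1 matches less frequent. Over all listed regions the shares were 2.08% for ETS, 0.562% for NRF1 and 7.02% for the E-box, near those of the intronic regions. For TATA, GATA and AP-1 they were 9.45%, 9.75% and 6.39%, below the intronic shares. For the cAMP element the share was 0.678%, above the intronic one. The part of base composition in these shares was not tested.

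By the transcript that the deposited annotation names, 4571 regions (37.5%, 36.6 to 38.4) lay in intron 1, 2492 (20.4%) in intron 2 and 1455 (11.9%) in intron 3. Introns 6 to 10 held 1260 regions and introns 11 or later held 1141. The highest number was intron 148, in Efcab3. Because first introns are long, densities were computed on the canonical transcripts of protein-coding genes, leaving out sequence within 1000 bp of a start site. Intron 1 held 10.2 regions per Mb (95% Poisson interval 9.80 to 10.7), intron 2 held 9.50 (8.97 to 10.1) and intron 3 held 9.997 (9.34 to 10.7). Introns 4 to 5 held 8.91 (8.35 to 9.49), and introns 11 or later 7.97 (7.53 to 8.43). Intron 1 made up 25.4% of this sequence and 28.3% of the regions in it. At the same distance from the canonical start of the host, intron 1 was not uniformly denser than later introns. At 50 to 100 kb it held 10.6 regions per Mb (9.46 to 11.9) against 7.71 (7.20 to 8.24), at 2 to 5 kb 9.68 (8.51 to 10.96) against 11.9 (10.2 to 13.7), and beyond 100 kb 8.71 against 8.74. Score, width and TAF4b share hardly differed by intron: 2.71% of regions in intron 1 and 2.94% of those in intron 4 or later overlapped TAF4b, and the median scores were 38.8 and 37.3.

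**Figure D4:**
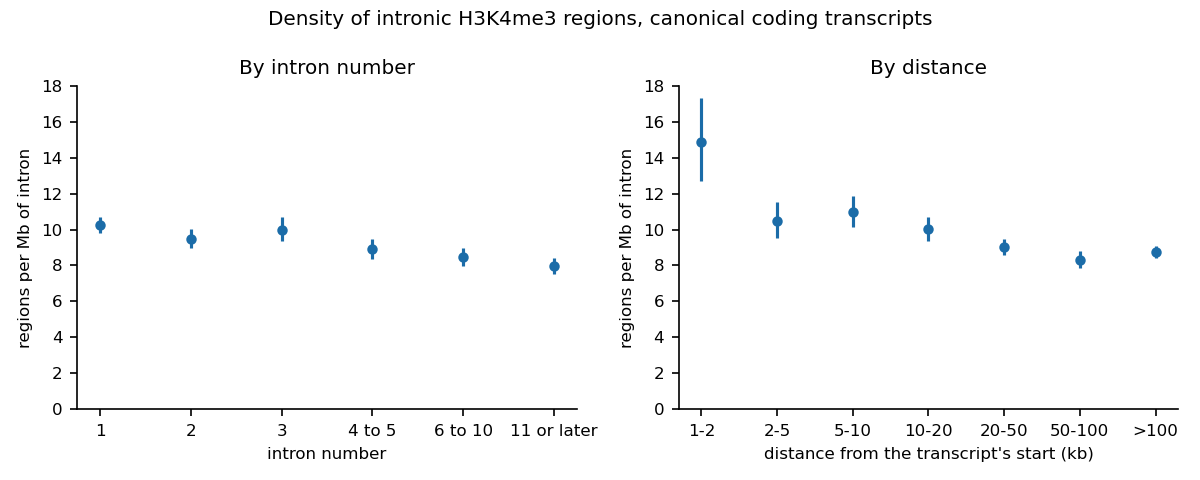
Regions per Mb of intron sequence with 95% Poisson intervals, by intron number (left) and by distance from the start of the canonical transcript in kb (right). Density is 10.2 in intron 1 and 7.97 in introns 11 or later, and 14.9 at 1 to 2 kb against 8.73 beyond 100 kb.

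The distance to the nearest start site had a median of 12854 bp and quartiles of 5334 and 31305 bp. Beyond 10 kb lay 57.7% of the regions, and 62.1% lay downstream of the nearest start. Measured from the canonical start of the host, the density was 14.9 per Mb (12.7 to 17.4) at 1 to 2 kb, 10.5 (9.52 to 11.5) at 2 to 5 kb, and 8.73 (8.40 to 9.07) beyond 100 kb. The intervals cover counting error only, and regions close to the edge of a promoter are included.

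The annotation used for the deposited distances left some start sites out. In the later GENCODE M39 set, 1302 of the regions (10.7%, 10.1 to 11.2) lay within 1000 bp of a start site, at a median of 224 bp, and for 1105 of these the transcript was of the lncRNA type. Of 1280 with a matched host gene, 663 (51.8%) had that start on the strand opposite to the host and 469 (36.6%) had a start of the host gene itself. The share was 12.9% in intergenic regions. It went from 6.73% in the lowest decile of the score to 18.7% in the highest. Of the 1302 regions 61 (4.69%) overlapped TAF4b, against 2.57% of the others. Start sites missing from the deposited annotation thus lay more often near the strong regions than near the weak ones.

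The strongest regions included several of this kind. The region in intron 2 of Klf1, an erythroid transcription factor, spanned chr8:85628736-85631713 with a score of 281.7 and centred 85 bp from a start site of the neighbouring gene Gcdh, a mitochondrial dehydrogenase. The Ngfr region (nerve growth factor receptor, intron 1, score 250.4) centred 89 bp from the start of the lncRNA Gm73698. The region with the highest score, 296.6, lay in intron 1 of Galnt14, a glycosyltransferase gene, at chr17:74000676-74002297, and its nearest M39 start was 10508 bp away. Clec2l followed with 243.0 and Cntnap2 with 234.0. The lncRNA genes Gm35721 and A830082K12Rik each held a region of score 229.6. The region in Fam241b (223.6) lay at -4063 bp from the start of Neurog3, a neurogenic transcription factor. Mtus2 had 220.6 and Atp6v1h, a proton pump subunit, 217.6, a score that 3 further regions, in Dok5, Castor2 and F930017D23Rik (named after their values were seen), shared. Of these regions Mtus2 alone overlapped a TAF4b peak (24.8).

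Few of the regions were found again in the second library. Of 12190, 66 (0.541%, 0.426 to 0.688) overlapped an H3K4me3 replicate 2 region, against 2.60% of all regions of replicate 1. Their share was 0 of 1219 in each of the 2 lowest deciles of the score and 3.04% (2.21 to 4.16) in the highest. In the other direction, 75 of the 77 replicate 2 regions (97.4%, 91.0 to 99.3) overlapped a replicate 1 region, near the 97.7% of all 1730 replicate 2 regions. Of the 75, 53 overlapped one of the intronic set, 6 a promoter region and 16 another class. By replicate 2 score the first of these was Clec11a (replicate 2 score 227.4, replicate 1 score 181.9), followed by Grid2ip, a synaptic scaffold (222.3 and 144.6), and Mecom, a transcription factor of blood stem cells (202.1 and 168.4). Sox13, a Sox family transcription factor, had 171.8 in replicate 2, Pax9, a developmental transcription factor, had 161.7, and Mtus2 had 151.6. Spred2, an inhibitor of growth factor signalling, had 146.5. Celf5, Gm48433 and Npnt each had 141.5. Clec11a, Grid2ip, Mtus2 and Spred2 also overlapped a TAF4b replicate 1 peak. Of the 543 regions with either of the 2 leading words 1 was found again.

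The regions were thinly spread over the X chromosome, of which male cells carry a single copy. Canonical introns of autosomes held 9.61 regions per Mb (9.39 to 9.83) and those of X held 3.02 (2.49 to 3.64), a ratio of 3.18. Among the 19 autosomes the density ran from 7.85 on chromosome 12 to 12.9 on chromosome 10, so X lay below all of them. X held 1.41% of the intronic regions (1.22 to 1.64), 2.38% of intergenic and 2.91% of promoter regions. The median score on X was 26.8. The Y chromosome held 2 regions.

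Host genes were named through the transcript identifier of each region, which was found in GENCODE M39 for 12006 regions (98.5%). These fell in 5778 genes, 4096 protein-coding and 1581 lncRNA, and 9170 regions (76.4%) lay in protein-coding hosts. A single region was found in 3398 hosts, 5 or more in 455 and 10 or more in 107. The 455 genes held 3776 regions and had a median length of 364.0 kb, against 19.1 kb for all protein-coding genes. Across 4096 protein-coding hosts, the number of regions and gene length had a Spearman's rho of 0.544, a description over genes.

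**Figure D5:**
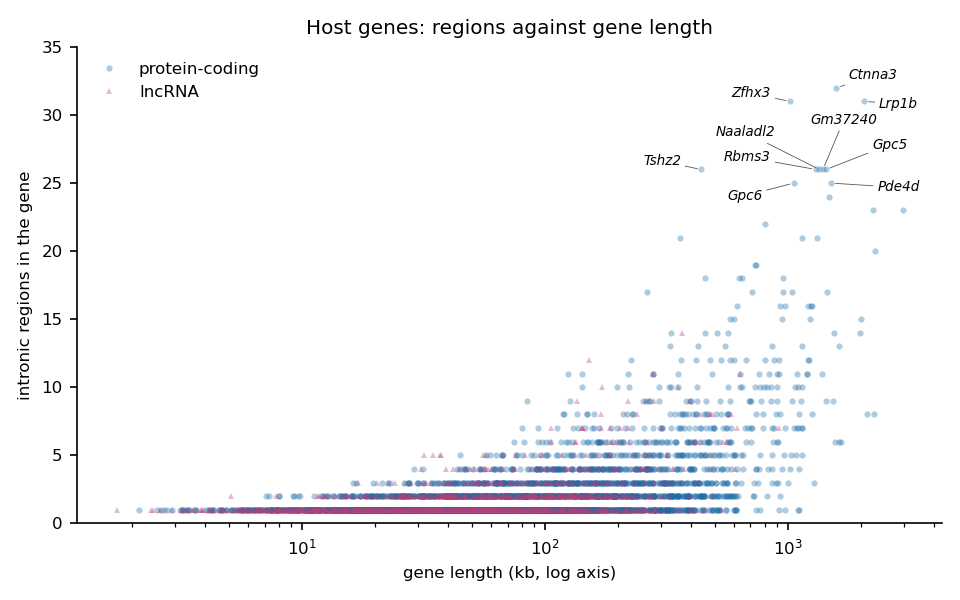
Number of intronic H3K4me3 regions per host gene against gene length in kb (log axis), 1 point per protein-coding (circles) or lncRNA (triangles) gene, with the 10 genes that hold the most named. Counts are higher in longer genes, and Tshz2 (26 regions in 439.1 kb) stands to the left of the other named genes.

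Genes with the most regions were very long. Ctnna3, an alpha-catenin of cell junctions, held 32 in 1580 kb, with scores from 19.4 to 101.4, and 11 of them lay in intron 5. Zfhx3, a homeobox transcription factor, and Lrp1b, a receptor of the LDL receptor family, held 31 each. Tshz2, a zinc finger factor, held 26, all in intron 1, at 5.92 per 100 kb. The average over all protein-coding genes was 0.829 per 100 kb. Gm37240 held 26, all in intron 3, as did Rbms3, an RNA-binding protein, in 7 introns, Naaladl2 in 7 and Gpc5 in 6. Pde4d, a phosphodiesterase, held 25 with a median score of 64.1, the highest median of the 10, and Gpc6, a glypican like Gpc5, held 25 with 41.7. TAF4b overlapped 3 of the Tshz2 regions, 1 in Naaladl2, 1 in Gpc6 and 0 in the other 7 genes, where the share over all the intronic regions was 2.80%. None of the 10 had a region that was found again in replicate 2, where 0.541% of all the intronic regions were.

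With length taken into account, other genes led. Among hosts with at least 5 regions, the lncRNA D430001F17Rik had 15.8 per 100 kb, Gm32585 had 14.5, the pseudogene Gm52960 had 13.8, Gm29811 had 13.6 and 4930557F10Rik had 13.4. The regions of 4930557F10Rik had a median score of 73.0. Castor2, of the CASTOR family of arginine sensors, had 11.2 per 100 kb, with 5 regions in intron 1. B3glct, a glucosyltransferase, had 10.7, with 9 regions in 8 introns. Gm45307 held 5 in 55.5 kb, and Gabrr3, a GABA receptor subunit, had 8.75 per 100 kb. Bcor, a Polycomb-associated corepressor on X, had 8.88, with 11 regions of which 7 were CpG-rich.

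One annotated transcript absent from M39, ENSMUST00000127664 on chromosome 8, had 60 regions in its intron 1, over 4.04 Mb. In M39 10 of these 60 lay inside any gene, so most were intergenic by the later annotation. Their median score was 38.8. Over all 12190 regions 12124 (99.5%) lay inside an M39 gene.

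Hosts were also compared at their own promoters, over all genes and by gene length. An H3K4me3 promoter region was listed for 52.7% of protein-coding hosts and 41.9% of other protein-coding genes. A TAF4b promoter peak was listed for 16.4% of hosts and 24.2% of the others, the opposite order. The TAF4b shares were not split by gene length, and hosts had a median length of 72.0 kb against 14.5 kb in the others. By quartile of gene length, the H3K4me3 share among hosts was not uniformly higher. Within the longest quartile of genes the shares were 58.2% (56.3 to 60.1) and 56.6% (54.8 to 58.4), and within the shortest 22.4% (14.8 to 32.3) and 24.5% (23.4 to 25.7). In the second-shortest quartile they were 37.3% (33.0 to 41.8) and 44.1% (42.7 to 45.5), and in the next 47.8% (44.7 to 50.9) and 51.0% (49.5 to 52.4). The intervals of hosts and other genes overlapped in every quartile except the second-shortest, where hosts had the lower share.

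Germ cell genes were hosts in 7 of 32 cases, with 17 regions and 1.03 per 100 kb, beside 18.8% and 0.829 per 100 kb for all protein-coding genes. Kit, the receptor for stem cell factor, which germ cell precursors need, held 6 regions in 81.8 kb with scores from 20.9 to 64.1. Intron 1 held all but 1 of the 6, at chr5:75739347-75740252 (score 64.1), chr5:75748269-75748769 (28.3), chr5:75751889-75753136 (50.7), chr5:75756828-75757598 (46.2) and chr5:75758840-75759618 (41.7). The fourth overlapped a TAF4b peak of score 7.94, and no promoter region was listed for Kit itself. The sequence at the centre of the strongest is shown because it sits 4144 bp from the nearest M39 start, with CG in capitals.
Kit intron 1, chr5:75739699-75739898: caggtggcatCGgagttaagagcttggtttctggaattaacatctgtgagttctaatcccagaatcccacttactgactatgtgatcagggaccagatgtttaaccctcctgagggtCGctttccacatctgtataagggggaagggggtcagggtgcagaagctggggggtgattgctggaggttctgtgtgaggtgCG
Prdm1, a repressor that specifies germ cells, held 4 regions, with scores from 41.7 to 92.4, and Gfra1, a GDNF receptor of spermatogonia, held 3. Dppa3 (score 96.9), Etv5 (23.8), Nanos3 (19.4) and Stra8 (28.3) held 1 each.

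Lists of chromatin genes are read beside the 18.8% of hosts and 0.829 regions per 100 kb of all protein-coding genes. Of 14 DNA methylation genes, Dnmt3a, the de novo methyltransferase, held 4, with scores of 80.5, 83.5, 31.3 and 70.1, and Dnmt1 held 1 of score 19.4, together 0.707 per 100 kb. A start site of M39 lay within 1000 bp of 2 of the Dnmt3a regions, one of them a start of Dnmt3a itself at 313 bp. Of 20 H3K4 methylation genes, Kdm2b held 3 regions and Kmt2c 1, together 0.385 per 100 kb. Of 22 Polycomb genes, Cbx7 and Jarid2 held 2 each and Aebp2 and Pcgf5 1 each, 18.2% of the list and 0.592 per 100 kb. None of 18 TFIID subunit genes and none of 14 housekeeping genes held a region, over 642.1 and 214.8 kb.

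Genes of other cells were hosts too. Sertoli and supporting cell genes were hosts in 6 of 16 cases, with 13 regions and 2.16 per 100 kb. Gata4, a gonadal transcription factor, held 4 with scores from 19.4 to 153.5, 2 of them within 1000 bp of an M39 start. Wt1 held 3, with scores from 29.8 to 49.2. Inhba and Fshr held 2 each, and Cldn11 and Inhbb 1. Leydig and interstitial genes held 5 regions in 4 of 16 genes, 1.51 per 100 kb, of which the Nr2f2 region scored 146.1 and overlapped TAF4b. Endothelial and blood genes held 12 in 6 of 16, 1.08 per 100 kb, led by Flt1 with 4. Of 28 synaptic adhesion genes, with a median length of 1032 kb, 26 were hosts, with 283 regions and 0.963 per 100 kb. Per length, the synaptic genes lay near the average of all protein-coding genes and the Sertoli list above it, on 13 regions. These lists are short, and none of these differences was tested.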

How the data were processed

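Deposited files of 4 CUT&RUN libraries were used, 1 list per library, without pooling: H3K4me3 regions and TAF4b peaks of replicates 1 and 2, with groups taken from the sample titles. The peak score is the authors' deposited score, whose normalization is not stated, and was used within 1 list only. The TAF4b focus ratio, a fraction deposited per the file headers, was not used. Coordinates, region width and distance to TSS are deposited values in bp. The H3K4me3 annotation used HOMER on GRCm39 and Ensembl 103, per the file headers. The submitters' processing notes name bcl2fastq 2.20, Trim Galore 0.5.0, FastQC 0.11.5, Bowtie2 2.3.0, SAMtools 1.9 and HOMER 4.10. Caller settings, read depths and the treatment of reads with several matches are not given in the sources used here.

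Genes, canonical introns, later start sites and sequences came from GENCODE M39 and GRCm39, matched by transcript identifier and read with Python 3.11.15 (numpy 2.4.6, pandas 2.3.3, scipy 1.17.1). An overlap needed 1 shared bp. Shares have 95% Wilson intervals, densities Poisson intervals and medians binomial order-statistic intervals, all covering counting error only. Regions are not replicates, so TAF4b shares were compared over libraries by an exact permutation test. Both shares of a replicate come from the same libraries and are paired by construction, which the replicate block takes into account. Overlap, motif, word and codon searches were tested on simulated data. Genes named were the hosts with the most regions, with the most per 100 kb (at least 5 regions), of the 10 highest H3K4me3 and TAF4b scores, of the 10 highest replicate 2 scores, and listed genes with a region. The members, rules and 10 gene lists were chosen with earlier results of these data known. The sequence words, the codon search and its distance were chosen after the sequences had been searched. Alternatives were a distance of 5000 bp, the higher-scoring 50%, no limit on width, a 50% overlap, the other TAF4b list, leaving out a replicate, the replicate block and, added after seeing the data, distance to all M39 start sites.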

Additional observations from a re-analysis of the deposited data

How the results depend on the processing

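Replicate 2 lists are short, so a region absent there may be below detection. Of 43 alternative values for the main results, 17 moved and 3 reversed. The other 23 stayed within the main value's interval (for the count of hosts, within 1.5 times) or, for the tested TAF4b difference, kept its direction whatever its size. The construction fixes 6 of the last (the replicate block and 5 without replicate 2), which leaves 17. The intronic share was 14.4% at over 5000 bp, 14.8% in the higher-scoring 50% and 16.8% with M39 start sites. Leaving out 1 replicate gave 4.45% to 18.8%. TAF4b overlap was 2.50% at over 5000 bp, 4.66% in the higher-scoring 50%, 0.139% with the other TAF4b list, and 1.30% to 2.80% without 1 replicate. The difference from intergenic regions reversed to 0.319 percentage points at over 5000 bp (exact permutation p 0.333), to 1.907 with the other TAF4b list and to 0.249 without replicate 2. It kept its direction at over 2 times the main size in the higher-scoring 50% (-1.860) and without replicate 1 (-2.035). With the replicate block it was -0.893 (exact sign-flip p 1.0, smallest possible 0.5). The score ratio to intergenic regions was 1.08 with M39 start sites and the width ratio 0.987 in the higher-scoring 50%. The intron 1 share was 33.0% at over 5000 bp, 39.3% in the higher-scoring 50%, 36.1% with M39 start sites and 37.5% to 46.8% without 1 replicate. The share found again was 0.396% and 1.22% under the first 2 settings. Hosts with 5 or more regions fell to 83 in the higher-scoring 50%, which holds fewer regions. The cause of the other changes was not tested.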
